A study of Mus musculus with 6 samples.

Results

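The 40 genes described here encode Toll-like and NOD receptors and the proteins that carry their signals. They were chosen by name, for what their products do, from 55536 annotated mouse genes. The rule for membership uses no measured value, but the list was drawn up with earlier results of these data known. Total RNA was sequenced in 6 libraries of RAW264.7 cells, a transformed mouse macrophage line. In 3 libraries the cells had been given PBS (Ctrl) and in 3 they had been given titanium particles (Ti), the metal debris that worn implants can shed. The labels name C57BL/6 as the background strain of both groups, although the line is known to derive from a BALB/c mouse. The sources used here do not state the particle dose or how long the cells were exposed. All 6 libraries come from this single line. Nothing in the labels marks replicates as separate cultures; p-values then reflect only the spread between these libraries, which may be technical.

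Toll-like receptors (TLRs) recognise microbial lipids, proteins and nucleic acids at the cell surface or inside endosomes, and NOD1 and NOD2 recognise fragments of bacterial cell wall in the cytosol. Most TLRs signal through the adaptor MyD88 to IRAK kinases and the ubiquitin ligase TRAF6, which activate the TAK1 and IKK kinase complexes and, through them, NF-κB and MAP kinases. TLR3 signals through TRIF instead, TLR4 uses both routes, and TRIF leads through TRAF3 and the kinases TBK1 and IKKε to interferon regulatory factors. NOD receptors reach the same TAK1 and IKK complexes through the kinase RIPK2. Macrophages carry many of these receptors and are a main source of the cytokines that they induce.

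The 6 libraries summed to between 37686020 and 60242937 estimated counts after rescaling, and 15376 genes passed the filter on low counts. Levels are given in CPM, the rescaled count as a rate of the library total, which is scaled by TMM except for the markers and the detection floor. All 8 macrophage markers were detected, with summed levels of 5082.2 to 6088.2 CPM in the Ctrl libraries and 5777.9 to 6499.0 CPM in the Ti libraries, both over unscaled totals. Most of the sum was Lyz2, with 159361 to 257879 counts per library. Other markers varied more between libraries, Csf1r from 30167 to 66676 counts in Ctrl and from 5376 to 64658 in Ti, and Itgam from 1915 to 2428 and from 554 to 5380; the part of this in the results was not tested. Of 24 markers of neutrophils, B cells, T cells, fibroblasts and epithelial cells, 12 had a count of 0 in every library, 3 exceeded 3 counts in any library, and the highest count was 25. With edgeR's quasi-likelihood test at an adjusted p of 0.05, 4 genes of the 15376 passed in all, 2 higher and 2 lower with Ti particles, which is 0.0260%. With the replicate number as a block, 0 passed in either direction. In bulk RNA, fewer cells of a type and less RNA per cell cannot be told apart.

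Of the 40 genes, 38 were detected and tested. Nod1, the receptor for a diaminopimelic acid fragment of cell wall, and Lbp, the serum protein that delivers lipopolysaccharide, had a count of 0 in all 6 libraries, where a count of 3 corresponded to 0.0498 to 0.0796 CPM. None of the 38 passed the adjusted threshold of edgeR, and the lowest adjusted p among them was 0.355. At an unadjusted edgeR p of 0.05, 3 of the 38 passed (Irak2, Map3k8 and Tab1), where 6.76% of all genes did. In the fit with the replicate number as a block, 6 passed unadjusted (those 3 with Cd14, Ticam2 and Irak4), where 9.37% of all genes did, and again none passed after adjustment. DESeq2, run as an alternative, called 2 of the 38 at an adjusted p of 0.05, Irak2 higher and Tab1 lower, where it called 1.90% of all genes. It gave no p-value for Traf3 and Ikbke, so these could not be called.

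The genes of the list were spread around no difference. The fitted log2 fold change of Ti over Ctrl was positive for 23 and negative for 15, or 60.5% positive against 50.9% of all genes tested, and its median was 0.05 against 0.01. The median was -0.04 without Ti replicate 3 and -0.02 without Ctrl replicate 1. For 28 of the 38 (73.7%) the log2 fold change was smaller than 0.5 in size, against 80.2% of all genes tested. It was larger than 1 for 5 (13.2%), namely Traf3, Ikbke, Map3k8, Irak2 and Tab1, against 5.89% of all genes. In 5 of the 38 the 3 Ti libraries lay all on one side of the 3 Ctrl libraries, where 13.3% of all genes did so. Irak2 was the only one of these with Ti above Ctrl (6.63% of all genes), and Tlr9, Myd88, Ticam2 and Tab1 had Ti below Ctrl (6.71% of all genes).

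**Figure D1:**
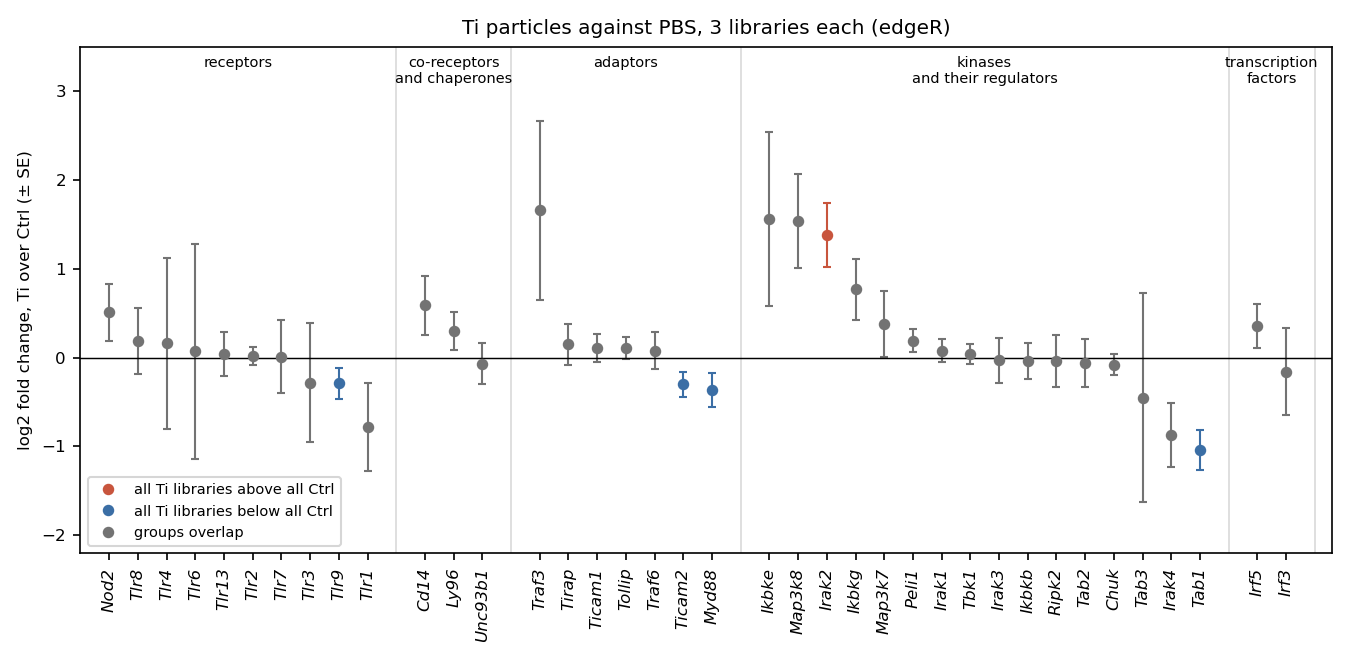
The vertical axis gives the fitted log2 fold change of Ti over Ctrl for each of the 38 tested genes, ordered within each role, with bars of 1 standard error from edgeR. Irak2 is the single gene with all Ti libraries above all Ctrl libraries; Tlr9, Ticam2, Myd88 and Tab1 have all Ti libraries below, and most others lie within 0.5 of zero.

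Levels can be compared between genes only per exon length, as TPM, a rate that divides each count by exon length. TPM is built from counts rescaled for genomic span by an approximate step, so the order of genes depends on that step as well. On that scale Cd14 was the most abundant of the list with a mean of 1059.4 TPM over the 6 libraries, in a range of 677.3 to 1925.1 TPM. Cd14 encodes the surface protein that hands lipopolysaccharide to TLR4 and its partner MD-2. Tlr2, the receptor for bacterial lipoproteins, followed with 94.6 TPM (range 80.7 to 109.9) and Irf5, the interferon regulatory factor that acts downstream of MyD88, with 77.5 TPM (range 58.8 to 112.5). These 2 ranges overlapped, so their order is not fixed beyond the spread between libraries. At the other end stood Tlr8 with a mean of 1.22 TPM, Map3k8 with 1.76 TPM and Tab3 with 2.09 TPM, and their ranges overlapped as well.

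**Figure D2:**
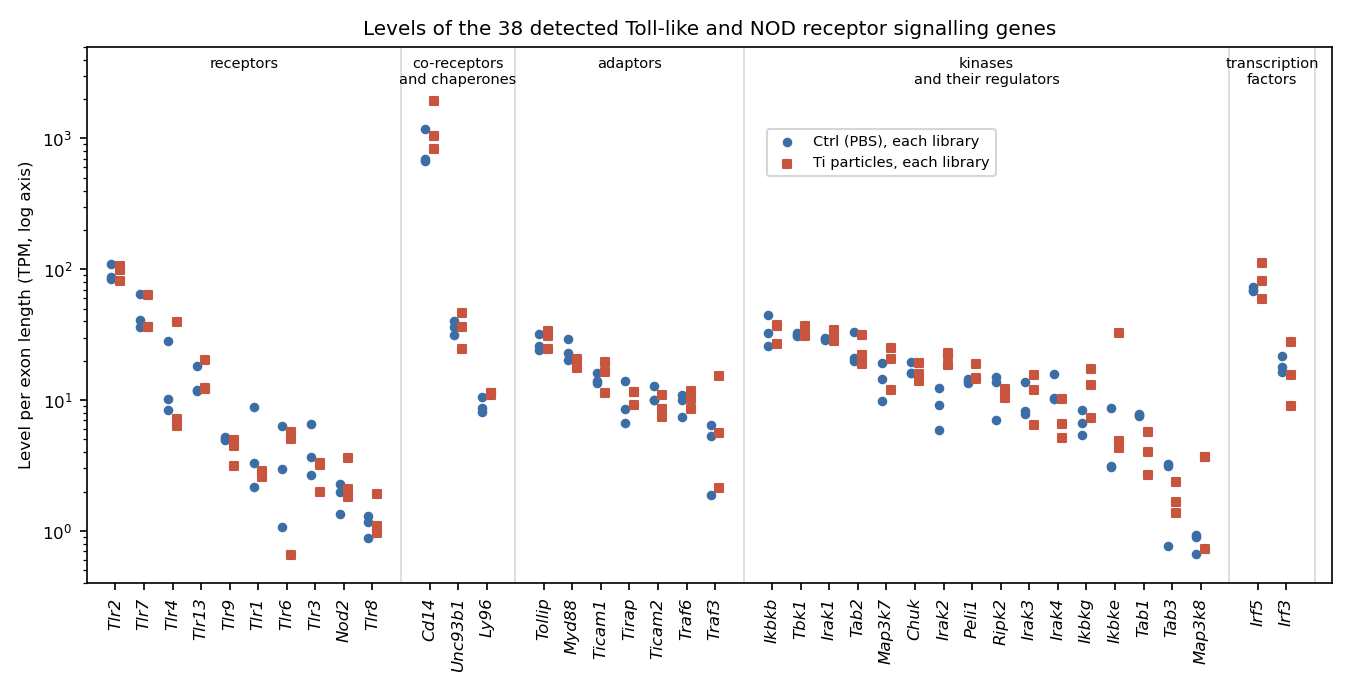
Each point is the level of a gene in 1 library in TPM, on a log axis, for the 38 detected genes grouped by role and ordered by mean level within each role. Cd14 lies above every other gene in all 6 libraries, and for most genes the Ctrl and Ti points are interleaved.

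Among the 10 detected receptors, 7 had a positive and 3 a negative fold change, with a median log2 fold change of 0.03, and none passed edgeR's threshold unadjusted. Tlr2 (ENSMUSG00000027995) measured 208.5, 215.8 and 242.1 CPM in Ctrl replicates 1, 2 and 3, and 218.2, 216.5 and 241.0 CPM in Ti replicates 1, 2 and 3. The means were 222.1 ± 17.7 CPM (SD, n = 3) and 225.2 ± 13.7 CPM (SD, n = 3), and the log2 fold change was 0.02 ± 0.10 (SE). The groups lay on top of each other, and with leaving out of single libraries the log2 fold change ran from -0.03 to 0.09. Tlr9 (ENSMUSG00000045322), the endosomal receptor for unmethylated CpG DNA, measured 14.1, 14.9 and 12.8 CPM in Ctrl and 12.7, 9.75 and 11.8 CPM in Ti. Every Ti value was below every Ctrl value, but the nearest pair, Ctrl replicate 3 and Ti replicate 1, were 12.8 and 12.7 CPM. Tlr9 had a log2 fold change of -0.29 ± 0.17 (SE), with an edgeR adjusted p of 0.832, and of -0.19 without Ti replicate 2.

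Tlr4, the lipopolysaccharide receptor, was chosen for a closer description after its values were seen. It measured 86.3, 21.3 and 22.9 CPM in Ctrl and 13.8, 19.0 and 113.1 CPM in Ti. Ctrl replicate 1 and Ti replicate 3 thus stood well above the other 4 libraries, 1 in each group, and the log2 fold change was 0.16 ± 0.96 (SE). A single protein-coding transcript, Tlr4-201, held 96.9% of the gene and carried this spread, with 84.9 and 110.9 CPM in those libraries and 12.7 to 21.0 CPM in the others. The cause of the spread was not tested.

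The remaining receptors all had overlapping groups. Tlr7, an endosomal receptor for single-stranded RNA, ranged from 89.3 to 153.0 CPM in Ctrl and from 77.8 to 187.9 CPM in Ti, and Tlr13, which recognises bacterial ribosomal RNA, from 34.9 to 51.9 CPM and from 33.6 to 56.0 CPM. Tlr3, the receptor for double-stranded RNA, lay between 1.83 and 11.3 CPM over all 6 libraries, and Tlr8, the relative of Tlr7, between 1.75 and 3.66 CPM. Nod2, the receptor for muramyl dipeptide, measured 3.89 to 5.77 CPM in Ctrl and 5.46 to 10.5 CPM in Ti, a log2 fold change of 0.51 ± 0.32 (SE). Tlr1 and Tlr6, which pair with TLR2, are close in sequence and adjacent on chromosome 5, so reads could be divided between them and their values are uncertain. Tlr1 measured 5.06 to 19.0 CPM in Ctrl and 5.45 to 7.02 CPM in Ti, and Tlr6 2.14 to 13.8 CPM and 0.268 to 13.6 CPM.

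Of the co-receptors and chaperones, Cd14 (ENSMUSG00000051439, GRCm38 chr18:36725067-36726798, minus strand) measured 832.1, 859.8 and 1318.8 CPM in Ctrl and 1160.6, 1136.0 and 2236.4 CPM in Ti. Within each group replicate 3 was the highest, and the groups overlapped through Ctrl replicate 3. The means were 1003.6 ± 273.3 CPM (SD, n = 3) and 1511.0 ± 628.3 CPM (SD, n = 3), and the log2 fold change was 0.59 ± 0.33 (SE) with an edgeR adjusted p of 0.823. Each Ti library was above the Ctrl library of the same number, and with the replicate block the edgeR adjusted p was 0.387. The size rested on single libraries, since the log2 fold change was 0.20 without Ti replicate 3 and 0.84 without Ctrl replicate 3. Ly96, which encodes the TLR4 partner MD-2, ranged from 3.95 to 5.52 CPM in Ctrl and from 5.09 to 6.35 CPM in Ti. Unc93b1, the chaperone that carries nucleic acid receptors to endosomes, ranged from 39.6 to 47.6 CPM and from 31.7 to 56.4 CPM.

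Among the 7 adaptors, 5 had a positive and 2 a negative log2 fold change, with a median of 0.11. Tollip (ENSMUSG00000025139), an adaptor known to restrain IRAK signalling, was the adaptor with the highest mean per exon length, 28.5 TPM. It measured 75.8, 70.8 and 84.3 CPM in Ctrl and 81.0, 77.9 and 91.1 CPM in Ti, with overlapping groups and a log2 fold change of 0.11 ± 0.12 (SE). Myd88 and Ticam2 were the adaptors whose groups were apart, both with Ti below Ctrl. Myd88 (ENSMUSG00000032508) measured 40.1, 58.5 and 41.0 CPM in Ctrl and 36.8, 39.3 and 32.7 CPM in Ti, and the log2 fold change was -0.36 ± 0.19 (SE) with an edgeR adjusted p of 0.816. Ctrl replicate 2 stood above the rest, and the log2 fold change was -0.16 without it.

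Little of the Myd88 estimate was placed on the transcript that codes for MyD88. Over the 6 libraries together 97.9% of the gene's estimated count was placed on Myd88-203, a transcript annotated as a retained intron, and only 0.0608% to 3.09% on the protein-coding Myd88-201. Myd88 had a log2 fold change of -1.30 when protein-coding transcripts alone were counted, an alternative chosen after seeing the data, with an edgeR adjusted p of 0.882. Myd88 also overlaps Acaa1a and Slc22a14, 1 of them on the same strand, so reads could be shared between genes. Ticam2 (ENSMUSG00000056130), which encodes the TRAM adaptor that links TLR4 to TRIF, measured 33.3, 32.6 and 36.2 CPM in Ctrl and 24.8, 26.2 and 31.8 CPM in Ti. Its means were 34.0 ± 1.88 CPM (SD, n = 3) and 27.6 ± 3.73 CPM (SD, n = 3), with a log2 fold change of -0.30 ± 0.14 (SE) and an edgeR adjusted p of 0.778. The highest Ti library came within 1 CPM of the lowest Ctrl library, and the gene overlaps Tmed7 on the same strand.

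Traf3, the adaptor on the route to interferon, had the largest positive log2 fold change of the list, and it came from 1 library. It measured 6.74, 19.9 and 9.23 CPM in Ctrl and 8.11, 93.9 and 11.8 CPM in Ti. The log2 fold change was 1.66 ± 1.01 (SE) with all libraries and -0.27 without Ti replicate 2, where the protein-coding Traf3-201 held 99.5% of the gene. Ticam1, which encodes TRIF, lay between 30.5 and 44.4 CPM over all 6 libraries. Tirap, which bridges TLR2 and TLR4 to MyD88, lay between 10.0 and 17.8 CPM, and Traf6, the ubiquitin ligase below the IRAKs, between 33.3 and 54.9 CPM. All 3 had overlapping groups.

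The 16 kinases and their regulators were divided evenly, 8 with a positive and 8 with a negative log2 fold change and a median of 0.01, and 4 of the 5 fold changes larger than 1 on the log2 scale were among them. Irak2 (ENSMUSG00000060477, GRCm38 chr6:113638467-113695026, plus strand) encodes an IRAK family protein needed for sustained TLR signalling. It measured 10.4, 28.2 and 16.0 CPM in Ctrl and 46.1, 46.9 and 49.2 CPM in Ti. All Ti libraries were above all Ctrl libraries, and the Ti libraries lay close together while the Ctrl libraries spread widely. The means were 18.2 ± 9.08 CPM (SD, n = 3) and 47.4 ± 1.59 CPM (SD, n = 3). The log2 fold change was 1.38 ± 0.36 (SE), with an edgeR adjusted p of 0.458 and a DESeq2 adjusted p of 0.0266. With leaving out of single libraries it ran from 1.10 without Ctrl replicate 1 to 1.85 without Ctrl replicate 2, with edgeR adjusted p of 0.212 to 0.784.

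The Irak2 estimate was divided mainly between a pair of protein-coding transcripts that differ by exon 3. Irak2-201 has 13 exons and 1866 coding bases, and Irak2-202 has 12 exons and 1722 coding bases. The exon that Irak2-202 lacks is 144 bases long, or 48 codons, so the reading frame is kept. It lies at GRCm38 chr6:113665703-113665846 on the plus strand. The exon and the joins that tell the transcripts apart, with 15 bases on each side, are shown 5′ to 3′ from GENCODE vM21. The exon is in capitals on its own line, and in the joins capitals mark the downstream exon.
Irak2 exon 3: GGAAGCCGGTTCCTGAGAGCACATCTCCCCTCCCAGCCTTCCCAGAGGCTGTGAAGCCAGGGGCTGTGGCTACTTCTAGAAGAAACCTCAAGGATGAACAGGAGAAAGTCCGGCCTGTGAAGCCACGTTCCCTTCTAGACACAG
Irak2-201 join: agattgtcttgagctGGAAGCCGGTTCCTG
Irak2-202 join: agattgtcttgagctGGCCCATCATGGCTG

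The transcript without exon 3, Irak2-202, was estimated at 2.4, 22.6 and 2.15 CPM in Ctrl and at 37.8, 39.4 and 40.9 CPM in Ti. It made up 23.0%, 80.3% and 13.4% of the gene in Ctrl and 82.0%, 84.0% and 83.1% in Ti. Ctrl replicate 2 thus resembled the Ti libraries in its share and lay below them in level. The transcript with exon 3, Irak2-201, was estimated at 6.01, 4.32 and 11.6 CPM in Ctrl and at 7.06, 6.28 and 7.24 CPM in Ti, with overlapping groups. The separation between groups in the gene's sum was therefore carried by Irak2-202. How the authors' software divided reads between transcripts that share most exons has an error that was not measured here, and these transcript values were described after they were seen and not tested.

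Tab1 (ENSMUSG00000022414, GRCm38 chr15:80133127-80161707, plus strand) encodes an activating subunit of the TAK1 kinase complex. It measured 17.9, 17.6 and 15.6 CPM in Ctrl and 10.7, 6.46 and 7.67 CPM in Ti, so every Ti library was below every Ctrl library with a wide gap. The means were 17.0 ± 1.26 CPM (SD, n = 3) and 8.29 ± 2.2 CPM (SD, n = 3), and 98.3% of the estimate lay on the protein-coding Tab1-201. For Tab1 the log2 fold change was -1.04 ± 0.23 (SE), with an edgeR adjusted p of 0.355, the lowest of the list, and a DESeq2 adjusted p of 0.00538. With leaving out of single libraries it ran from -1.27 to -0.89, with edgeR adjusted p of 0.35 to 0.737. The other parts of the TAK1 complex had overlapping groups. Map3k7, the TAK1 kinase itself, ranged from 35.1 to 86.5 CPM in Ctrl and from 57.3 to 102.3 CPM in Ti, and Tab2, a ubiquitin-binding subunit, from 57.5 to 100.9 CPM and from 60.6 to 91.0 CPM. Tab3, the relative of Tab2, measured 14.9, 15.4 and 0.192 CPM in Ctrl and 9.03, 8.14 and 5.2 CPM in Ti.

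**Figure D3:**
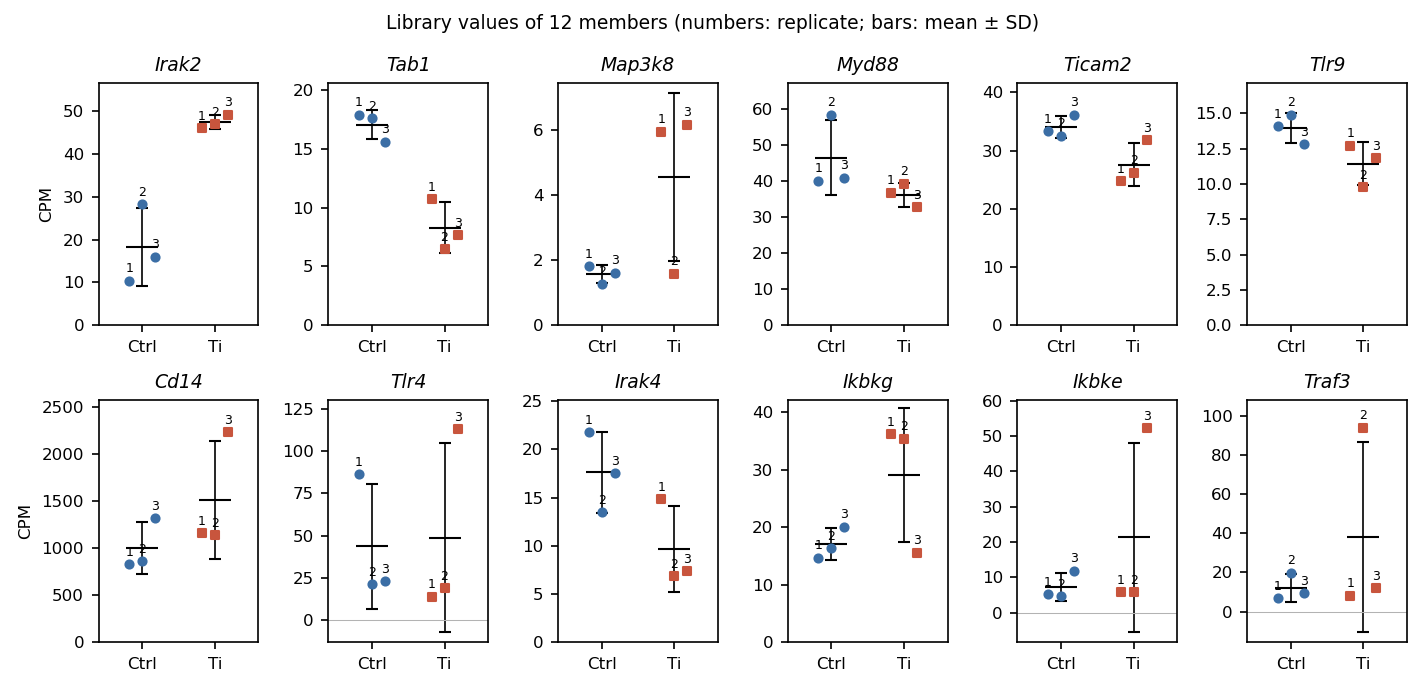
Each panel gives the CPM of a gene in the 3 Ctrl (circles) and 3 Ti (squares) libraries, marked with the replicate number, with the mean and SD as bars. Irak2 and Tab1 are apart by a clear gap, while Traf3 and Ikbke each owe their mean in Ti to 1 library and Tlr4 has 1 high library in each group.

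Map3k8 (ENSMUSG00000024235) encodes TPL2, the kinase that links TLRs to the ERK branch of the MAP kinases. It measured 1.81, 1.27 and 1.61 CPM in Ctrl and 5.94, 1.58 and 6.16 CPM in Ti. Ti replicates 1 and 3 were above all Ctrl libraries, and Ti replicate 2 lay among them. Its log2 fold change was 1.54 ± 0.53 (SE), with an edgeR adjusted p of 0.645. The high values were placed on Map3k8-205, a transcript annotated for nonsense-mediated decay (NMD), with 5.46 CPM in Ti replicate 1, 5.5 CPM in Ti replicate 3 and 0 in the other 4 libraries. The protein-coding Map3k8-201 was estimated at 1.09 to 1.66 CPM in Ctrl and at 0.414, 1.42 and 0.569 CPM in Ti. Counting protein-coding transcripts only turned the log2 fold change of Map3k8 to -0.78, with an edgeR adjusted p of 0.842.

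The IKK complex, which frees NF-κB by marking its inhibitors for degradation, showed no common direction. Ikbkb (ENSMUSG00000031537), the catalytic subunit IKKβ, had the highest mean of the kinases per exon length, 34.1 TPM, with a range of 25.9 to 45.1 TPM that overlapped that of Tbk1 (mean 32.9 TPM, range 30.8 to 36.8). Ikbkb measured 85.2, 64.2 and 105.9 CPM in Ctrl and 87.3, 73.2 and 88.3 CPM in Ti, with a log2 fold change of -0.04 ± 0.20 (SE). The sign of this log2 fold change turned when single libraries were left out, from -0.21 to 0.15. After the rescaling by exon length over genomic span, 11.5% to 30.6% of the Ikbkb estimate lay on protein-coding transcripts. That share depends on the rescaling, which is approximate. Chuk, the subunit IKKα, lay between 38.3 and 47.8 CPM in all 6 libraries. Ikbkg, the regulatory subunit NEMO, measured 14.7, 16.4 and 20.1 CPM in Ctrl and 36.2, 35.4 and 15.6 CPM in Ti, so Ti replicate 3 was with the Ctrl libraries. Its log2 fold change was 0.77 ± 0.34 (SE) with an edgeR adjusted p of 0.761. The 23.2 and 23.3 CPM placed on Ikbkg-203 in Ti replicates 1 and 2 compare with 0.0271 to 0.889 CPM in the other 4 libraries, and the gene overlaps G6pdx.

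The kinases of the interferon branch differed in how steady they were. Tbk1 measured 54.7, 60.5 and 53.1 CPM in Ctrl and 54.9, 61.3 and 56.4 CPM in Ti, with a log2 fold change of 0.04 ± 0.11 (SE). Ikbke, which encodes IKKε, measured 5.31, 4.56 and 11.9 CPM in Ctrl and 5.86, 5.73 and 52.3 CPM in Ti. Its log2 fold change of 1.56 ± 0.98 (SE) was -0.32 without Ti replicate 3. In that library 35.1 CPM, or 67.0% of the gene, were placed on the protein-coding Ikbke-204, which was at 0 in the other 5 libraries. Protein-coding transcripts held 0.0759% to 67.0% of the Ikbke estimate per library. In the Ctrl libraries the retained-intron Ikbke-206 held 66.6% to 72.6%.

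The remaining kinases and regulators had overlapping groups. Irak4, the first kinase that MyD88 recruits, was chosen for its values and measured 21.8, 13.5 and 17.5 CPM in Ctrl and 14.8, 6.88 and 7.36 CPM in Ti. Each Ti library was below the Ctrl library of the same number. The log2 fold change was -0.87 ± 0.36 (SE), with an edgeR adjusted p of 0.736 and of 0.406 with the replicate block, and it was -1.31 without Ti replicate 1. Of the Irak4 estimate, 18.6% to 61.3% was placed on the retained-intron Irak4-203 and 38.7% to 81.4% on protein-coding transcripts. In Ctrl replicate 3, 6.53 CPM was placed on Irak4-202, against 0.126 to 0.467 CPM elsewhere. Irak1, which IRAK4 activates, lay between 40.5 and 52.4 CPM, and Irak3, the inhibitory IRAK-M of macrophages, between 12.8 and 22.4 CPM. Peli1, a ubiquitin ligase that acts on IRAKs, lay between 36.4 and 47.7 CPM, and Ripk2 between 16.2 and 33.3 CPM.

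The sums of Ripk2 and Tbk1 hid large differences between libraries in the transcript on which the estimate was placed. Ripk2-202, annotated for NMD, adds an exon of 124 bases at GRCm38 chr4:16131523-16131646 on the minus strand, in which the annotated stop codon cuts the coding sequence from 1617 to 945 bases. Tbk1-204, also annotated for NMD, lacks the last 4 bases of exon 4 of Tbk1-201, and its coding sequence is 363 bases against 2187. The extra Ripk2 exon and the last 20 bases of Tbk1-201 exon 4 (GRCm38 chr10:121576274-121576293, minus strand) are shown 5′ to 3′ from GENCODE vM21, because apart from the outermost ends these are the only bases in which each pair differs. Capitals mark the stop codon in Ripk2 and the bases that Tbk1-204 lacks.
Ripk2-202 extra exon: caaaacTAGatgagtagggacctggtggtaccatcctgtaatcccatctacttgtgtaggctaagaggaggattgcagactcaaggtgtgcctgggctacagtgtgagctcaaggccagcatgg
Tbk1-201 exon 4 end: cattgtcttacgagatGTGG

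Ripk2-202 was estimated at 14.6, 0.126 and 0.255 CPM in Ctrl replicates 1, 2 and 3, and at 23.5, 27.3 and 0.192 CPM in Ti. Nearly the whole estimate was thus placed either on this transcript or on the protein-coding Ripk2-201. Ripk2-201 was estimated at 1.63, 33.2 and 27.0 CPM in Ctrl and at 1.22, 1.54 and 20.6 CPM in Ti. Which transcript held the estimate did not follow the groups. Tbk1-204 held 78.5%, 79.2% and 0% of the gene in Ctrl and 72.4%, 73.6% and 65.1% in Ti. Ctrl replicate 3 stood alone, with 48.0 CPM on Tbk1-201 against 5.91 to 11.6 CPM in the other libraries. The gene totals of Tbk1 differed far less than this. The error of dividing reads between transcripts that share most exons was not measured here, and these transcript values were not tested. Over the 38 genes the leading transcript was protein-coding in 33, held over 90% of the estimate in 15 and under 50% in 8.

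**Figure D4:**
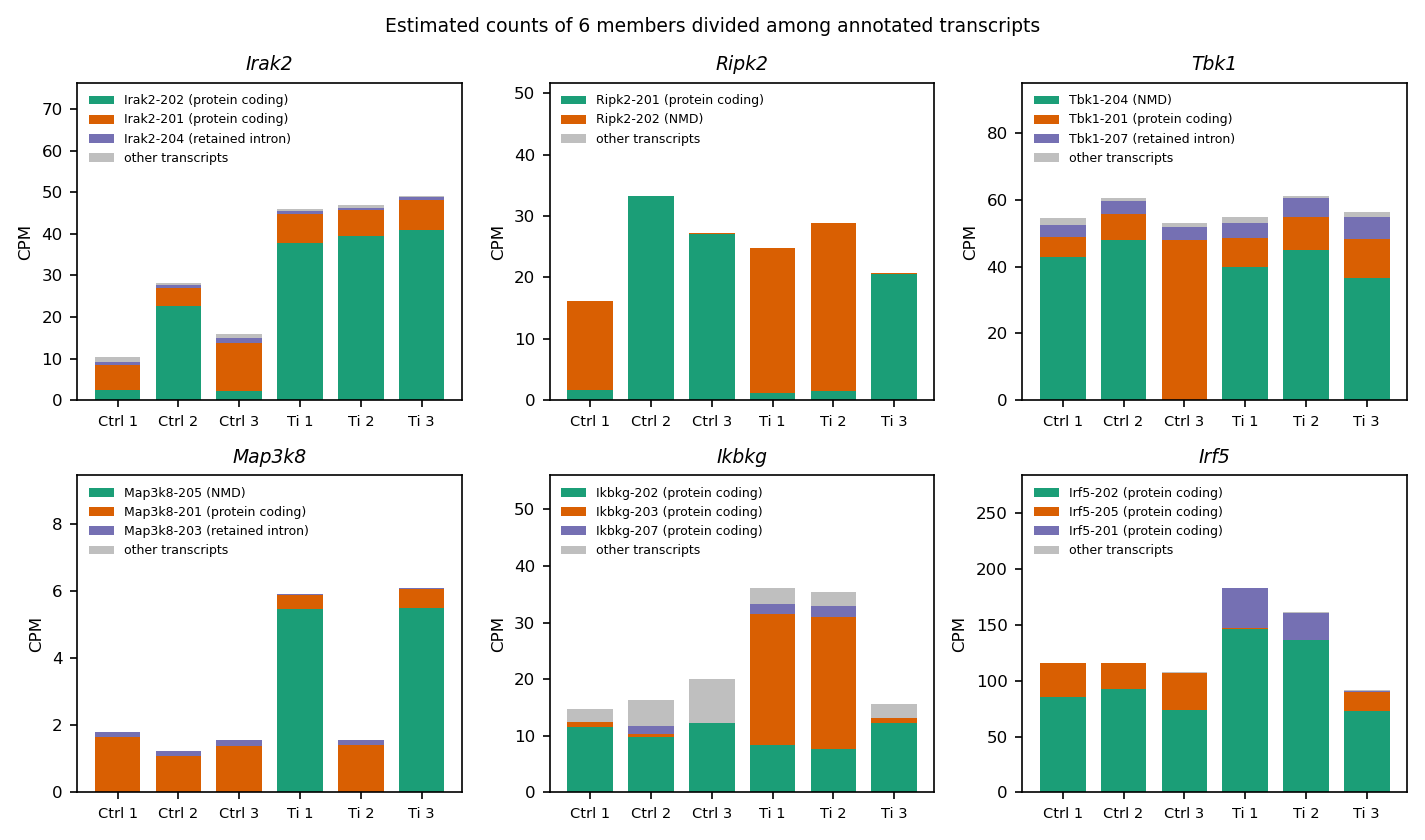
Bars give the CPM of 6 genes in each library, stacked by the annotated transcript on which the estimate was placed. Irak2-202 fills most of the bar in all 3 Ti libraries and in Ctrl replicate 2. In Ripk2 the transcript given most of the estimate differs between libraries within both groups, and in Tbk1 it differs in Ctrl replicate 3.

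Of the interferon regulatory factors, Irf5 (ENSMUSG00000029771) was the more abundant and measured 116.0, 116.2 and 107.4 CPM in Ctrl and 183.1, 161.3 and 91.6 CPM in Ti. Ti replicates 1 and 2 were above all Ctrl libraries and Ti replicate 3 below them. The means were 113.2 ± 5.03 CPM (SD, n = 3) and 145.3 ± 47.8 CPM (SD, n = 3), with a log2 fold change of 0.36 ± 0.25 (SE) and an edgeR adjusted p of 0.88. It was 0.16 without Ti replicate 1 and 0.61 without Ti replicate 3. The same pair of libraries stood apart in the division between transcripts. Irf5-201 was estimated at 36.0 CPM in Ti replicate 1, 24.2 CPM in Ti replicate 2 and 0.108 to 1.08 CPM elsewhere, and Irf5-205 at 0.52 and 0.595 CPM against 17.3 to 33.4 CPM elsewhere. Without the rescaling of deposited values the log2 fold change of Irf5 was 0.04. Irf3, the factor that TBK1 activates, ranged from 12.9 to 14.4 CPM in Ctrl and from 5.68 to 22.1 CPM in Ti, and overlaps Bcl2l12.

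The rest of the pathway was read from 5 lists of 73 other genes, 65 of them tested. These lists, too, were drawn up with earlier results of these data known. None of the 65 passed edgeR's adjusted threshold in either direction. The log2 fold change was positive for 46 and negative for 19, with a median of 0.17. At an unadjusted edgeR p of 0.05, 15 passed, 12 of them higher with Ti, where 6.76% of all genes passed in either direction. In 20 the groups were apart (13.3% of all genes), 15 with Ti above Ctrl (6.63%) and 5 with Ti below (6.71%). DESeq2 called 8 of the 65, where it called 1.90% of all genes.

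Output genes, the cytokines, chemokines and enzymes that TLR signalling is known to induce, had a positive log2 fold change in 11 of 11 tested, against 50.9% of all genes tested, with a median of 1.40. None of the 11 passed edgeR's adjusted threshold. At an unadjusted edgeR p of 0.05, 7 passed, where 6.76% of all genes did in either direction. DESeq2 called 6 higher, where it called 1.90% of all genes in either direction. The groups were apart, with Ti above Ctrl, in 8 of the 11 (6.63% of all genes). As the output list was drawn up with earlier results of these data known, these counts are not an independent test. Acod1, which makes itaconate, measured 12.0 ± 1.18 CPM (SD, n = 3) in Ctrl and 82.1 ± 40.3 CPM (SD, n = 3) in Ti, a log2 fold change of 2.78 ± 0.36 (SE) with an edgeR adjusted p of 0.134. Without Ti replicate 3, the highest library, its log2 fold change was 2.30 and passed, with an edgeR adjusted p of 0.0393. Nos2, the inducible nitric oxide synthase, measured 1.03, 0.598 and 1.1 CPM in Ctrl and 11.1, 7.85 and 22.2 CPM in Ti. Tnf, a leading inflammatory cytokine, measured 126.2, 114.7 and 137.0 CPM in Ctrl and 255.4, 231.3 and 329.8 CPM in Ti. In all 3 of these genes every Ti library was above every Ctrl library. Tnf had a log2 fold change of 1.11 ± 0.16 (SE) and Nos2 of 3.90 ± 0.50 (SE), with edgeR adjusted p of 0.157 and 0.134. Il6, Il12b and Ifnb1 had too few counts to be tested.

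The other 4 lists stood closer to zero. Transcription factors and inhibitors were positive in 12 of 15, with a median log2 fold change of 0.21. Rel, an NF-κB subunit, measured 76.3 ± 7.33 CPM (SD, n = 3) in Ctrl and 111.5 ± 13.4 CPM (SD, n = 3) in Ti, with a log2 fold change of 0.55 ± 0.13 (SE), and Irf1, an interferon regulatory factor, had one of -0.80 ± 0.27 (SE), which was -0.51 without Ctrl replicate 2. Nfkbia, the NF-κB inhibitor that NF-κB itself induces, had a log2 fold change of 0.34 ± 0.14 (SE) with overlapping groups. Ubiquitin machinery was positive in 8 of 13, with a median of 0.05. Tnip1, a ubiquitin-binding inhibitor of NF-κB, measured 33.3, 34.0 and 25.9 CPM in Ctrl and 57.7, 61.8 and 56.1 CPM in Ti. Its groups were far apart, and its log2 fold change was 0.91 ± 0.14 (SE) with an edgeR adjusted p of 0.206.

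MAP kinase cascade genes were positive in 7 of 13, with a median log2 fold change of 0.01. The 1 large value among them was that of Map2k6, a kinase that activates p38, at -2.81 ± 0.61 (SE) with an edgeR adjusted p of 0.353. It was low everywhere, at 0.349 to 1.03 CPM in Ctrl and 0.0536 to 0.107 CPM in Ti, or 2 to 5 estimated counts in the Ti libraries. Other receptors and receptor handling were positive in 8 of 13, with a median of 0.14. Slc15a4 and Slc15a3, endolysosomal transporters known to carry bacterial peptides to NOD receptors, had all Ti libraries above all Ctrl libraries. Slc15a4 measured 3.67, 3.99 and 8.15 CPM in Ctrl and 16.1, 8.73 and 13.9 CPM in Ti, and Slc15a3 34.5, 29.4 and 33.7 CPM and 48.2, 42.8 and 108.1 CPM. Their log2 fold changes were 1.29 ± 0.40 (SE) and 1.03 ± 0.37 (SE), and that of Slc15a3 was 0.49 without Ti replicate 3. With protein-coding transcripts only they were 3.15 and 1.75, with edgeR adjusted p of 0.57 and 0.402. Ly86, the partner of the TLR4 relative CD180, had all Ti libraries below all Ctrl libraries and a log2 fold change of -0.41 ± 0.13 (SE).

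**Figure D5:**
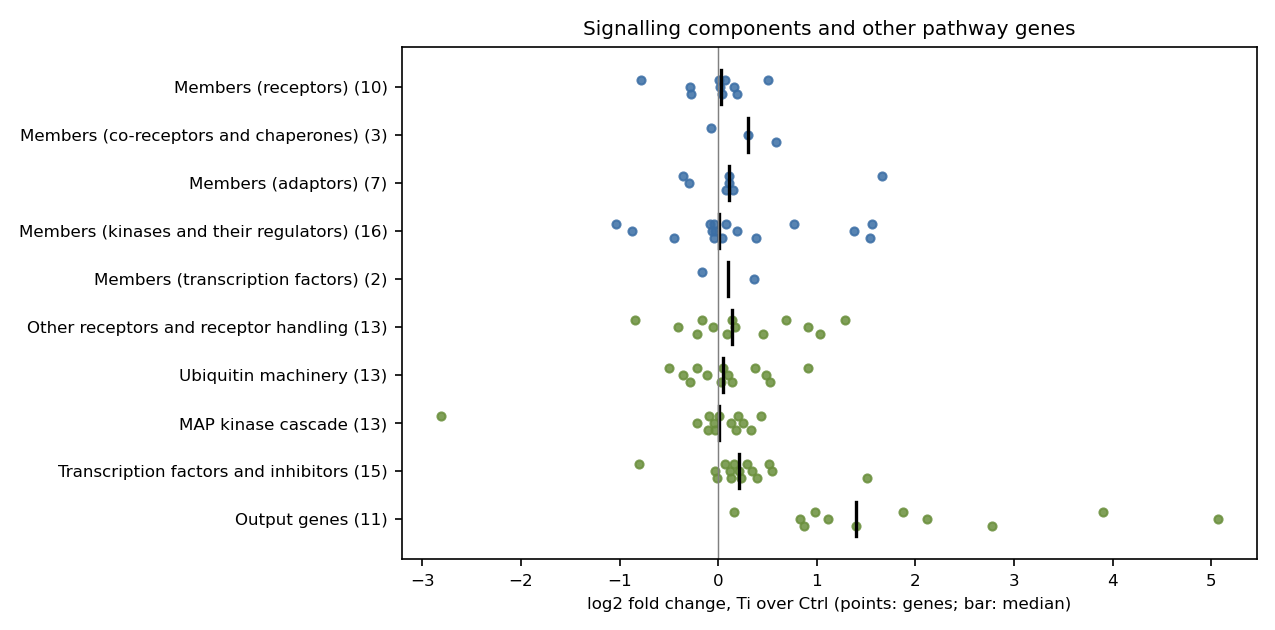
Each point is the log2 fold change of Ti over Ctrl for a tested gene, with the 38 genes of the list by role in blue, the 65 other pathway genes by list in green, and a bar at each median. The output genes have a median of 1.40, and the medians of the other groups lie between 0.01 and 0.30.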

How the data were processed

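Each library came with estimated counts for 187351 transcripts, which the authors deposited as whole numbers. HISAT2, StringTie and the build mm9 are named per the submitters' processing notes; no source used here gives versions, the counting tool or strand use. In all, 141862 rows carry Ensembl identifiers that match all 141862 transcripts of GENCODE vM21 (GRCm38), used for names, positions and sequences. The other 45489 rows, assembled transcripts holding 36.9% to 51.2% of the deposited totals, have no gene and were not used. Because the deposited estimated counts grew with genomic span (log-scale slope 0.732 at a given exon length), each was multiplied by exon length over span, summed per gene and rounded; the slope after this step is -0.268, so the correction is approximate. Rescaled counts are therefore not read numbers, and transcript shares and TPM depend on this step.

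Genes were tested in all 6 libraries with edgeR 4.0.16 (TMM, filterByExpr, quasi-likelihood; limma 3.58.1, R 4.3.3), with Benjamini-Hochberg adjustment over the 15376 genes tested and a threshold of 0.05. CPM uses TMM-scaled library totals, TPM rescaled counts per exon length, and the floor of 3 counts and the marker sums unscaled totals. The standard error is the log2 fold change over the square root of F. On simulated data for Ti against Ctrl (15376 genes, 3 simulations, 100 genes changed at each size) edgeR recovered 6.33% of 2-fold and 62.7% of 4-fold changes, with 5.91% false among its calls. No replicate pair agreed within the counting noise of the rescaled counts. As these are not read numbers, the comparison cannot show how far the reads differed beyond sampling. Deviations of same-numbered libraries from their group means correlated at 0.11, 0.144 and 0.266, against -0.17 to 0.0402 for other pairs. The numbers thus meet the rule for pairing (every pair over 0.1), though no label states a pairing. Deviations cancel within each group, so positive correlations of same-numbered libraries lower those of other pairs by construction. The contrast with other pairs is therefore not separate evidence of pairing. The main fit has no block, and the fit with the replicate block is an alternative.

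The genes of the list, the other pathway lists and the markers were chosen with earlier results of these data known. Library values are given for each gene of the list whose groups do not overlap or whose unadjusted p is under 0.05 and for the most abundant of each role per exon length; of each other pathway list, up to 3 genes with the smallest p are named, plus Tnf and Nfkbia. All other genes described by library, and all transcripts, were chosen after their values were seen. Of the 40 genes, 18 overlap another annotated gene. Alternatives were no filter, a mean of at least 50 counts, DESeq2 1.42.0 (its size factors and its test), the replicate block, values without rescaling, leaving out libraries, and protein-coding transcripts only. Tables and plots used Python 3.11.15, pandas 2.3.3 and matplotlib 3.10.9.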

Additional observations from a re-analysis of the deposited data

How the results depend on the processing

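Over all genes, where 2 passed higher and 2 lower, DESeq2 called 163 and 129, the replicate block 0 and 0, the fit without both libraries numbered 3 gave 0 and 0, and protein-coding transcripts only (chosen after seeing the data) 1 and 1; no filter on low counts gave 1 lower. With leaving out of single libraries the counts ran from 1 to 8 higher and from 0 to 7 lower. Of the 38 genes of the list, 0 passed in the main test, and DESeq2 called 1 higher and 1 lower; of the 65 other pathway genes, DESeq2 called 7 higher and 1 lower, and the fit without Ti replicate 3 called 1 higher. Among the genes named, none passed edgeR's adjusted threshold with or without the replicate block. At an unadjusted edgeR p of 0.05 the block added Cd14, Ticam2 and Irak4 to the genes of the list that passed. The median log2 fold change of the list ran from -0.035 to 0.108 over single libraries left out. Signs turned for Map3k8 (-0.78), Irak1 (-0.07) and Ikbkb (0.01) with protein-coding transcripts only, and for Ikbkb when the libraries numbered 3 were both left out (0.11). With leaving out of single libraries, log2 fold changes ran from -0.03 to 0.09 for Tlr2 (negative without Ctrl replicate 1 or Ti replicate 3), from -0.21 to 0.15 for Ikbkb (positive without Ctrl replicate 3, and 0.04 when Ti replicate 2 was left out), from -0.01 (without Ti replicate 1) to 0.16 for Irak1, from -0.27 (without Ti replicate 2) to 2.25 for Traf3, and from -0.32 (without Ti replicate 3) to 2.11 for Ikbke. Fewer samples or fewer transcripts enter these fits by construction, and no other cause was tested. With 3 libraries a group, edgeR recovered few 2-fold changes in simulation, so a gene that did not pass is not shown to be without a difference.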

Other observations

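Transcript estimates of genes not described above in that respect were as follows, chosen after their values were seen and with no test. Nod2-202, a protein-coding transcript, was estimated at 1.74 CPM in Ti replicate 1 and 6.51 CPM in Ti replicate 3 and at 0 to 0.0808 CPM in the other 4 libraries, while the retained-intron transcript Nod2-204 lay between 1.6 and 2.8 CPM in all 6. The higher Nod2 sums of Ti replicate 3 therefore lay on Nod2-202. Tlr1-202 was estimated at 13.7 CPM in Ctrl replicate 3 and at 0.655 to 1.24 CPM elsewhere, and Tlr1-201 at 3.81 to 6.96 CPM in all 6 libraries. The coding transcript Irak3-201 held 2.84% and 11.9% of the gene in replicate 1 of Ctrl and of Ti and 66.8% to 96.6% in the other 4 libraries. In replicate 1 of each group the second coding transcript, Irak3-205, held 49.6% and 57.4%. In Irak3-201 and Irak3-205 the replicate 1 libraries of both groups thus resembled each other more than the other libraries of their groups. They differed in Irak3-202, annotated for NMD, which held 37.9% in Ctrl replicate 1 and 0% in Ti replicate 1. They also differed in the retained-intron Irak3-204, at 7.42% and 29.1%.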
